A study of Mus musculus with 4 samples.

Results

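Genes of the voltage-gated sodium (Scn) and calcium (Cacn) channels, the Clcn chloride channels and exchangers, the hyperpolarization-activated Hcn channels and the Trp cation channels were compared between mature olfactory sensory neurons of Nd1 transgenic mice and of controls. The members were taken by symbol, leaving out Trpc2 and Trpm5, which gave 74 genes of 28168 loci in the table. A symbol with several rows was represented by the row of highest mean level. The symbol rule also took in Trpc4ap, which encodes a Trpc4-associated protein and no channel. The other 73 of the 74 are named as channel genes or channel subunit genes.

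The neurons were sorted by fluorescence from dissociated olfactory epithelium, and polyadenylated RNA was sequenced in 4 libraries, 2 per group. The Nd1 libraries came from mice carrying Nd1+/-, OMP-IRES-tTA+/- and OMP-IRES-GFP+/-, one aged 212 days and the other 87 days. The 212-day control carried Nd1+/- without the OMP-IRES-tTA allele, and the 87-day control carried OMP-IRES-tTA+/- without Nd1, both with OMP-IRES-GFP+/-, and the table's first line calls the controls littermates. The tTA and GFP alleles sit at Omp, a gene of mature olfactory neurons, every library carried GFP there, and the series title describes the transgene as a source of double-stranded RNA. The authors deposited 1 pooled FPKM value per group (fragments scaled to transcript length and to the number mapped), so each gene has a control and an Nd1 value with no spread between libraries, and the depth is unknown. Every call below is the authors' Cuffdiff call at q under 0.05, and rose and fell are used only of genes that passed it.

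An odorant opens a cyclic nucleotide-gated channel in the cilium of an olfactory neuron, calcium-activated chloride channels amplify the current, and voltage-gated sodium channels turn the depolarization into action potentials that run to the olfactory bulb. Voltage-gated calcium channels at the axon terminal release transmitter, and Hcn channels set excitability and membrane properties near rest. The Clcn family includes plasma membrane chloride channels and chloride-proton exchangers of endosomes and lysosomes, and Trp channels are cation channels gated by chemicals, temperature or lipid signals.

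Of the 74 genes the authors tested 42, of which 12 rose (28.6%), 13 fell (31.0%) and 17 did not pass. Among all tested loci 34.4% were called, 15.1% as higher and 19.2% as lower. Outside the odorant receptors (symbols beginning with Olfr) 30.3% were called, 16.2% as higher and 14.1% as lower. The share of channel genes called was 59.5%, with both directions above those shares. The median log2 ratio of Nd1 to control was 0.023 over the 39 tested channel genes whose mean reached 0.5 FPKM, beside -0.069 over all tested loci and -0.044 outside odorant receptors at the same level.

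Rises and falls were then counted by level. Of 21 tested channel genes averaging 10 FPKM or more, 8 fell and 5 rose. Among all tested loci of that level outside odorant receptors, channel genes included, 15.4% were called lower and 13.9% higher. Of 21 tested channel genes below 10 FPKM, 7 rose and 5 fell, beside 18.2% higher and 13.0% lower among all such loci below 10 FPKM. The falls were mostly small. Their median was 1.39-fold and 8 of 13 were under 1.5-fold, while the rises had a median of 1.87-fold and 3 of 12 under 1.5-fold. For called loci outside odorant receptors those medians were 1.48-fold for falls and 1.90-fold for rises, with 51.6% and 30.5% under 1.5-fold.

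**Figure D1:**
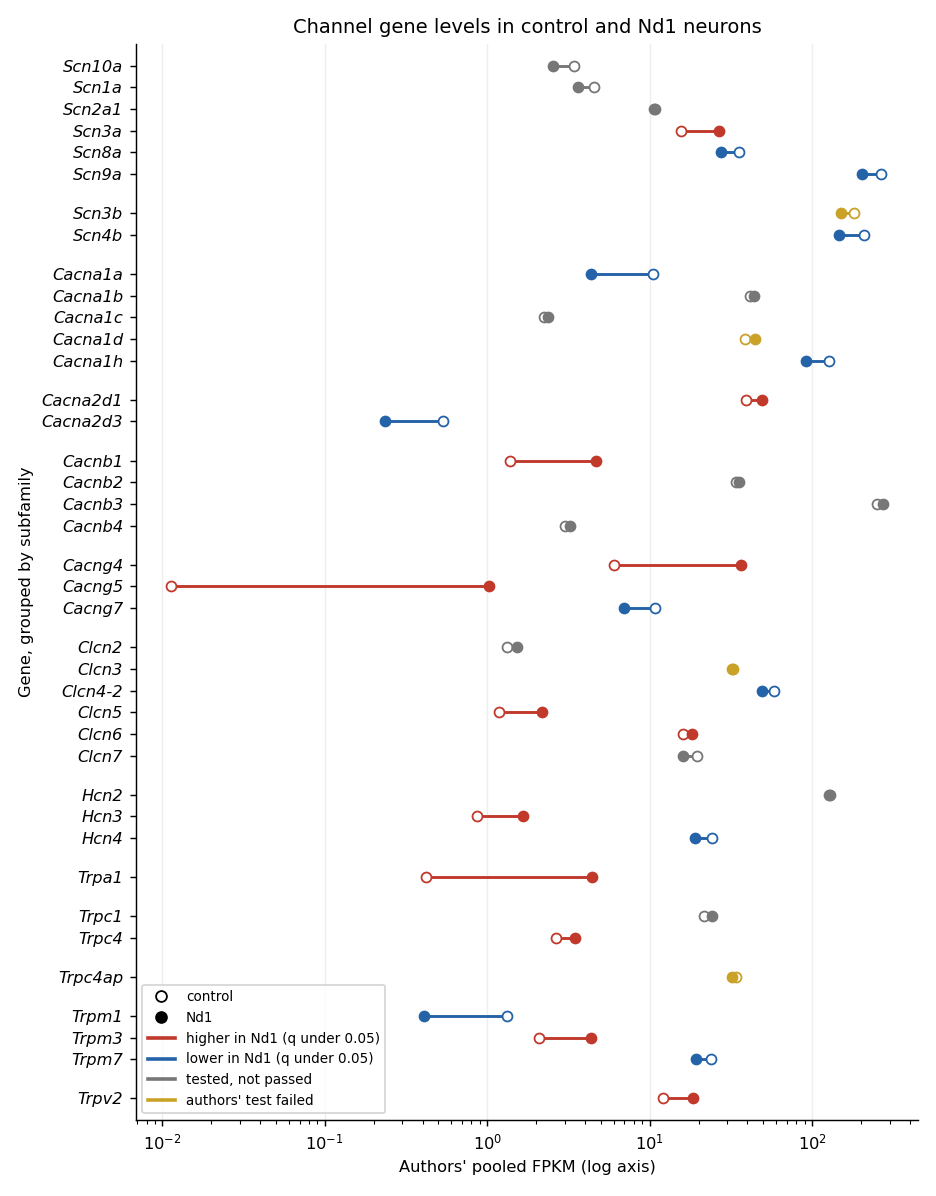
Authors' pooled FPKM of 39 channel genes reported here that were called or reached 1 FPKM in a group, on a log axis, with open circles for control, filled circles for Nd1 and colour for the call; each circle is 1 pooled value with no error. The widest distances are those of Cacng5, Trpa1 and Cacng4, which rose, while the most abundant genes moved little.

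**Figure D2:**
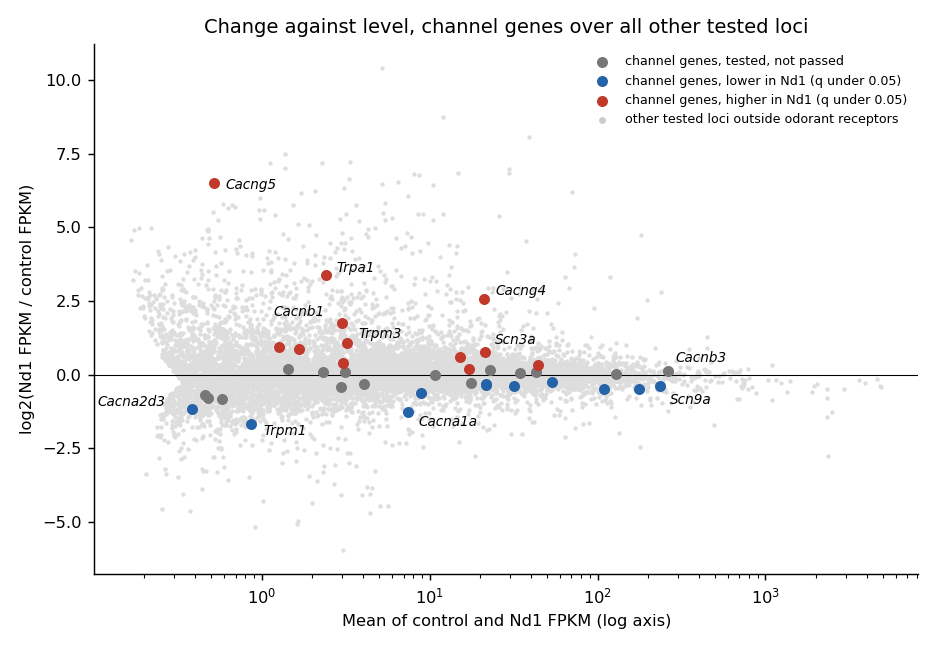
Log2 ratio of Nd1 to control FPKM against the mean of both values (log axis) for the tested channel genes reported here (coloured by call) and, in grey, other tested loci outside odorant receptors whose mean reached 0.1 FPKM. Above 10 FPKM the channel genes lie between -0.50 and 0.78 apart from Cacng4 at 2.59, and the highest ratio is that of Cacng5, a gene of low level.

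Of 8 tested sodium channel genes 4 fell (50%) and 1 rose (12.5%), beside 19.2% lower and 15.1% higher among all tested loci. Scn9a, a pore-forming subunit known from nociceptors and required for smell, was the most abundant of all 74 genes in control, and it fell from 264 to 204 FPKM, a log2 ratio of -0.38 (q = 0.0103 in the authors' deposited table). Scn8a, a subunit of axon initial segments and nodes of Ranvier, fell from 35.7 to 27.6 FPKM (1.29-fold). Scn9a made up 63.9% of the summed level of the pore-forming subunits in control and 60.0% in Nd1.

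Scn3a, a subunit prominent in the developing brain, went the other way. Its level was 15.6 FPKM in control against 26.9 in Nd1, a 1.72-fold rise (q = 6.44e-13 in the authors' deposited table), and was the single riser among 7 tested pore-forming sodium channel genes. It lies on mm9 chromosome 2 (65295175 to 65405549) in a run of sodium channel genes with Scn2a1, Scn1a, Scn9a and Scn7a, and none of these neighbours was called higher. Scn2a1, a main subunit of brain neurons, stood at 10.8 and 10.7 FPKM, and Scn1a, a subunit of inhibitory neurons, at 4.53 and 3.63 FPKM, neither passing the test. Scn10a, a subunit of sensory neurons, stood at 3.41 and 2.54 FPKM and did not pass. Scn4a, Scn7a and Scn11a were not tested and lay at or under 0.252 FPKM in both groups. The median log2 ratio of the 7 tested genes was -0.32, and it lay between -0.32 and -0.21 under the alternative scalings and pseudocounts.

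Auxiliary beta subunits tune gating and surface expression. Scn4b fell from 208 to 147 FPKM (1.41-fold, q = 0.00264 in the authors' deposited table). Scn3b had 180 FPKM in control against 151 in Nd1 and carries no call, since its test failed. Scn2b was not tested, with at most 0.116 FPKM. The summed FPKM of the 10 pore-forming genes was 414 in control and 340 in Nd1, a log2 ratio of -0.28. Summed FPKM over all loci was also lower in Nd1, 391743 against 357895 (log2 ratio -0.13, and -0.10 outside odorant receptors).

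Genes that mark the cells of the sort moved alongside these falls. Of 10 tested markers of mature olfactory neurons 9 fell and none rose, and the sum over the 13 listed genes was 15084 FPKM in control and 6346 in Nd1. That sum includes Gnal (1672 and 924 FPKM) and Ric8b (796 and 273 FPKM), whose tests failed. Of 13 tested markers of immature olfactory neurons 11 rose and 1 fell, with sums over 14 genes of 758 and 1180 FPKM. Those sums include Crmp1 (42.6 and 59.3 FPKM), whose test failed. Within the mature list Omp itself fell from 4087 to 605 FPKM. Both Nd1 libraries carried OMP-IRES-tTA at Omp, and the 212-day control did not. The part of this difference in the Omp fall, and so in the mature sum, was not tested. The cyclic nucleotide-gated channel subunits fell too, Cnga2 from 860 to 486 FPKM, Cnga4 from 471 to 341 and Cngb1 from 196 to 137. The part of these marker changes in the channel results was not tested, and in RNA of pooled cells fewer cells of a type and less RNA per cell cannot be told apart.

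**Figure D3:**
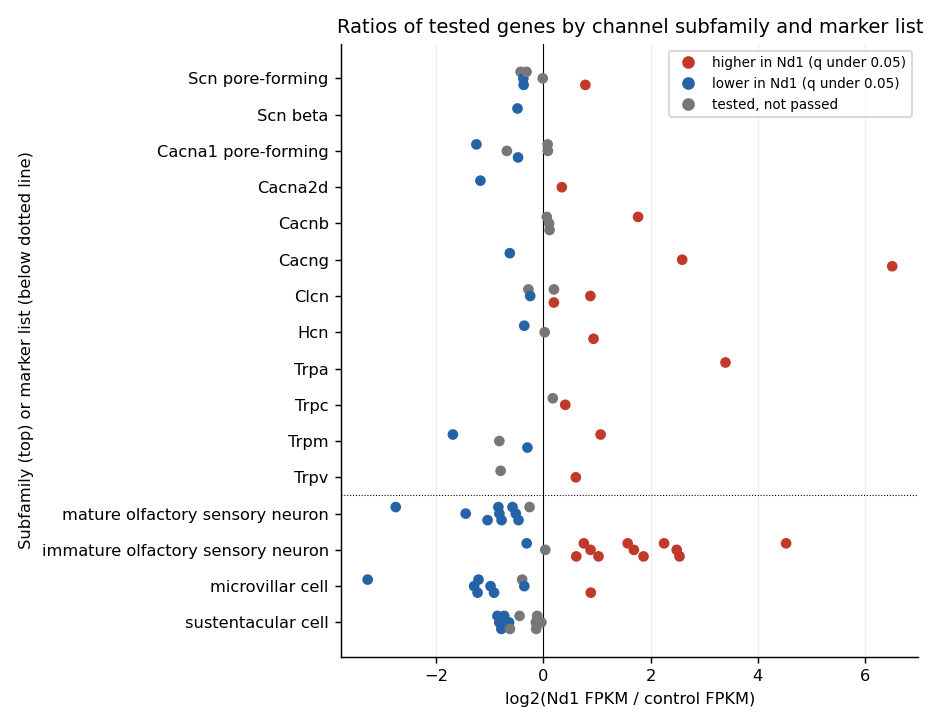
Log2 ratio of Nd1 to control FPKM of the tested genes reported here, 1 point per gene coloured by call, by channel subfamily above the dotted line and by marker list below it; vertical offsets within a row only separate points. The sodium channel points lie between -0.50 and 0.78, the tested mature neuron markers all lie below 0, and the immature neuron markers lie mostly above it.

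Of 5 tested pore-forming calcium channel genes 2 fell (40% called, beside 34.4% of all tested loci), none rose and 3 did not pass. Cacna1h, a low-voltage-activated T-type channel, was the most abundant and fell from 127 to 91.5 FPKM (1.39-fold, q = 0.00663 in the authors' deposited table). Cacna1a, the P/Q-type channel of presynaptic terminals, fell from 10.4 to 4.38 FPKM, a 2.38-fold decrease (q = 4.11e-15 in the authors' deposited table) and the deepest among pore-forming calcium and sodium channel genes. Its presynaptic counterpart Cacna1b, the N-type channel, stood at 41.6 and 43.9 FPKM and did not pass (q = 0.613). The share of Cacna1h in the summed pore-forming level was 57.5% in control and 48.8% in Nd1.

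Cacna1d, an L-type channel, stood at 38.9 and 44.7 FPKM, but the authors' test failed. Cacna1c, the L-type channel of heart and brain, was at 2.24 and 2.38 FPKM and Cacna1f, that of the retina, at 0.568 and 0.354 FPKM, and neither passed. The remaining Cacna1e, Cacna1g, Cacna1i and Cacna1s were not tested and lay at or under 0.195 FPKM in both groups.

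Of the genes named as auxiliary calcium channel subunits, 2 alpha2delta, 4 beta and 3 gamma genes were tested. They held 4 rises and 2 falls, beside 15.1% higher and 19.2% lower among all tested loci. The gamma genes, most of which in neurons serve glutamate receptors as described below, gave 2 of these rises and 1 of the falls. Cacna2d1, the alpha2delta subunit that binds gabapentin, rose from 39.0 to 49.5 FPKM (1.27-fold, q listed as 0). It made up 98.6% of the summed alpha2delta level in control. Cacna2d3, another alpha2delta subunit, fell from 0.531 to 0.235 FPKM, a 2.26-fold change at low level. Cacna2d2 and Cacna2d4 were not tested, the second being listed at 0 in control and 0.136 FPKM in Nd1.

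The cytoplasmic beta subunits bring the pore to the membrane. Cacnb3 had 252 FPKM in control against 273 in Nd1, where it was the most abundant of all 74 genes, and did not pass (q = 0.143). Cacnb2 (34.0 and 35.4 FPKM) and Cacnb4 (3.01 and 3.24 FPKM) also did not pass. Cacnb1, the beta subunit of skeletal muscle that neurons also express, rose from 1.38 to 4.68 FPKM, a 3.40-fold increase (q = 1.41e-10 in the authors' deposited table). A second row of Cacnb4, of lower level, was called higher in the authors' deposited table, with 1.95 and 2.50 FPKM.

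Of 3 tested gamma subunit genes 2 rose and 1 fell. Most neuronal members of this family are auxiliary proteins of AMPA-type glutamate receptors (TARPs) rather than calcium channel subunits. Cacng4, a TARP, rose from 6.05 to 36.4 FPKM, a 6.01-fold increase (q listed as 0 in the authors' deposited table). A second row of Cacng4, from 0.284 to 1.82 FPKM, was also called higher. Cacng5, another TARP, rose from 0.0114 to 1.03 FPKM (q = 0.000284 in the authors' deposited table). That is 90.8-fold as a plain ratio, resting on a control value near 0, and 1.01 on the scale log2(FPKM + 1), where Cacng4 stood at 2.41.

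Cacng4 and Cacng5 are neighbours on mm9 chromosome 11 (107596094 to 107657296 and 107735919 to 107776369), 78.6 kb apart. The muscle gene Cacng1 lies 18.3 kb to the other side of Cacng4, was not tested and was listed at 0 in control and 0.0238 FPKM in Nd1. In the second cluster of the family, on mm9 chromosome 7, Cacng7 (3333055 to 3366537) fell from 10.8 to 6.98 FPKM (1.54-fold, q = 0.0444 in the authors' deposited table), while Cacng6 and Cacng8 were listed at 0 in both groups. Cacng7 made up 63.8% of the summed gamma level in control and 15.7% in Nd1, and Cacng4 35.8% and 81.8%. Cacng3 was listed at 0 in both groups and Cacng2 was not tested, with at most 0.0551 FPKM. Of 10 skeletal muscle markers, listed to check for other cells that a sort may hold, 4 were tested. Mb rose from 0.0921 to 3.19 FPKM and none of these markers fell. Their sum was 3.45 FPKM in control and 6.82 in Nd1, and most of that difference was Mb. Acta1 (1.52 and 1.36 FPKM), Ckm (1.26 and 1.41 FPKM) and Mylpf (0.538 and 0.724 FPKM) were detected in both groups and did not pass, while the 6 markers not tested (Myh1, Myh2, Myh4, Tnnt3, Tnni2 and Ttn) lay at or under 0.0970 FPKM. The part of muscle RNA in the Cacnb1 rise was not tested.

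**Figure D4:**
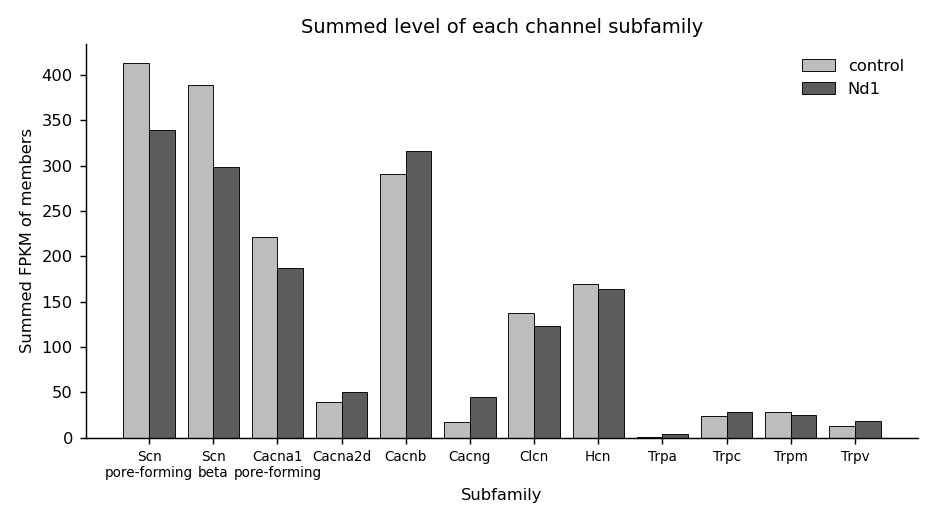
Summed FPKM of the members of each channel subfamily in control (light bars) and Nd1 (dark bars), from single pooled values with no error bars; Trpc4ap is left out. Both sodium channel sums are lower in Nd1, as is the sum over all loci (not drawn), and the gamma (Cacng) sum goes from 16.9 to 44.4 FPKM.

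Upstream sequence was examined for the 5 members that rose at least 2-fold, which are Cacng5, Trpa1, Cacng4, Cacnb1 and Trpm3, because they moved in the same direction. RefSeq promoter entries on GRCm38.p6, another build than the table's mm9, matched 55 of the 74 genes and 3 of these 5. The 250 bases before the outermost start of those 3 are given 5′ to 3′ on the gene's strand, at chr11:107915056-107915305 (minus strand) for Cacng5, chr11:98022628-98022877 (minus strand) for Cacnb1 and chr19:22138796-22139045 (plus strand) for Trpm3. Capitals mark a match on either strand to AANNGAAA, the core bound by interferon regulatory factors, or to CCCNNGGG, the core bound by Ebf factors of olfactory neurons. A match to one motif can overlap a match to the other in part.
Cacng5: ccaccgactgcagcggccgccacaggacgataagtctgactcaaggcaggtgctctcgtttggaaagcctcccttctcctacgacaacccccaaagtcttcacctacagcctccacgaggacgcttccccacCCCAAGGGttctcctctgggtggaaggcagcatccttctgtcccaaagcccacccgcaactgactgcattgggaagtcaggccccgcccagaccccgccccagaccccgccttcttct
Cacnb1: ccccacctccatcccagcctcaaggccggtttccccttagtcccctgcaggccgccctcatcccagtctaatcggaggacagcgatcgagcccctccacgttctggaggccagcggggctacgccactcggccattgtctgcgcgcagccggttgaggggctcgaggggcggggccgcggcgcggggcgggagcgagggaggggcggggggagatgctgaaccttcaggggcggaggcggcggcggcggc
Trpm3: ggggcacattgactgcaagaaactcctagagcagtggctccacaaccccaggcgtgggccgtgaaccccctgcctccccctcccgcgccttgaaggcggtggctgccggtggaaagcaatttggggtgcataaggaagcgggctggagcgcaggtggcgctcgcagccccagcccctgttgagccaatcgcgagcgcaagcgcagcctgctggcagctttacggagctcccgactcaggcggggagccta
Cacng5 held 1 match to CCCNNGGG, and neither motif was found in the windows of Cacnb1 and Trpm3. The interferon regulatory factor core stood in 1 of 8 windows of risers and 3 of 8 windows of genes that fell, beside 21.6% of 27025 windows of the same length. The Ebf core stood in 1 of 8 windows in each of these sets, beside 11.6% of all windows. Which start the neurons use is not shown by these data, and a match is only a description of the letters.

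Of the Clcn genes, Clcn4-2, an endosomal exchanger, was the most abundant and fell from 58.3 to 49.1 FPKM (1.19-fold, q = 1.55e-08 in the authors' deposited table). Clcn6, a late endosomal exchanger of neurons, rose from 16.0 to 18.3 FPKM (1.14-fold, q = 0.0316), the smallest rise among the members. Clcn5, the exchanger of early endosomes, rose from 1.18 to 2.17 FPKM (1.83-fold). The lysosomal exchanger Clcn7 stood at 19.4 and 16.0 FPKM and the plasma membrane channel Clcn2 at 1.33 and 1.52 FPKM, neither passing. Clcn3, an endosomal exchanger, stood at 32.4 FPKM in both groups, but the authors' test failed, and the muscle channel Clcn1 was not tested.

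Markers of microvillar cells, a non-neuronal cell type of the epithelium that expresses chloride channels, were read beside this family. Of 9 tested markers 7 fell and 1 rose, and the sum over 11 listed genes was 201 FPKM in control and 138 in Nd1. Among them the transcription factors Ascl3 (42.8 to 18.5 FPKM) and Foxi1 (13.4 to 7.09 FPKM) and the chloride channel Cftr (5.59 to 2.28 FPKM) fell, and Pou2f3 rose. None of the list was at 0 in either group, and its part in the Clcn results was not tested.

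Of the Hcn genes, Hcn2 held the largest share of the family's level and stood at 128 and 130 FPKM without passing (q = 0.917). Hcn4, the slow channel of cardiac pacemaking, fell from 24.2 to 18.9 FPKM (1.28-fold, q = 0.0198 in the authors' deposited table). Hcn3 rose from 0.867 to 1.66 FPKM (1.91-fold, q = 0.0447), close to the threshold.

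Of the 20 Trp channel genes 9 were tested, 4 rose and 2 fell (66.7% called, beside 34.4% of all tested loci). Trpa1, a receptor channel for irritants such as mustard oil, rose from 0.422 to 4.40 FPKM, a 10.4-fold increase (mm9 chromosome 1, 14862729 to 14908943, q listed as 0 in the authors' deposited table). On the scale log2(FPKM + 1) that is 1.93. Trpa1 is known from trigeminal and dorsal root sensory neurons, whose other Trp genes, the capsaicin receptor Trpv1 and the cold receptor Trpm8, were not tested, were listed at 0 in control and reached 0.0265 and 0.0332 FPKM in Nd1. Among 10 trigeminal markers 4 were tested, and Prph (21.5 to 217 FPKM) and Nefh (0.962 to 2.87 FPKM) rose while none fell. P2rx3 (1.24 and 0.941 FPKM) and Isl1 (0.643 and 0.313 FPKM) were lower in Nd1 but did not pass. The sum over the 10 markers was 24.8 FPKM in control and 221 in Nd1, almost all of it Prph. The peptide genes Calca (0.334 and 0.248 FPKM) and Tac1 (0 and 0.0439 FPKM) were low in both groups, and Mrgprd was listed at 0 in both. The part of this list in the Trpa1 rise was not tested.

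Trpm3, a heat-activated and steroid-activated channel, rose from 2.09 to 4.38 FPKM (2.09-fold, q = 1.34e-12 in the authors' deposited table). Trpm7, a widely expressed channel fused to a kinase, was the most abundant of its family and fell from 23.8 to 19.4 FPKM (1.23-fold, q = 2.24e-05). Trpm1, the channel of retinal bipolar cells, fell from 1.32 to 0.411 FPKM (3.22-fold, q = 0.0147). As a plain ratio this was the steepest fall among the called members. On the scale log2(FPKM + 1) Trpm1 stood at -0.72, less steep than Cacna1a at -1.09. Trpm4, a calcium-activated channel, stood at 0.740 and 0.418 FPKM and did not pass. Trpm2 and Trpm6 were not tested and lay at or under 0.0958 FPKM.

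Trpv2 rose from 12.1 to 18.4 FPKM (1.52-fold, q = 6.98e-05 in the authors' deposited table) and made up 95.1% of the summed Trpv level in control. Trpv4, an osmotically sensitive channel, stood at 0.612 and 0.352 FPKM and did not pass (q = 0.0594), Trpv3 and Trpv5 were listed at 0 in both groups, and Trpv6 was not tested. Trpc4, a receptor-operated channel, rose from 2.63 to 3.49 FPKM (1.33-fold, q = 0.0139), and Trpc1, which forms mixed channels with other Trpc subunits, stood at 21.5 and 24.3 FPKM without passing (q = 0.0878). Trpc5, Trpc6 and Trpc7 were not tested and lay at or under 0.0524 FPKM. The authors' test failed for Trpc4ap, at 33.9 and 32.3 FPKM.

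In all, 28 of the 74 genes were not tested. Of these, 5 were listed at 0 in both groups, 5 in control alone and 1, Trpc5, in Nd1 alone, and no fold is given for them. The 4 failed tests, of Scn3b, Cacna1d, Clcn3 and Trpc4ap, concerned genes of at least 32.3 FPKM in both groups.

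Markers of other cells were read in the same way. Of 11 tested sustentacular cell markers 5 fell, of 6 basal cell markers 5 fell and of 7 markers of neutrophils and macrophages 6 fell, and none of these lists held a rise. Their sums went from 381 to 328, from 14.8 to 8.12 and from 31.5 to 7.25 FPKM. In the last list the macrophage genes Csf1r, Cd68, C1qa and C1qb were not tested and lay at or under 0.245 FPKM in both groups. In the sustentacular list Cbr2, Krt8, Krt18, Sox2 and Notch2 fell, and 6 tested genes did not pass. Those 6 include Sult1d1 (254 and 234 FPKM), Cyp2a5 (30.9 and 28.0 FPKM) and Cyp2g1 (15.8 and 15.3 FPKM). Among all tested loci 19.2% were called lower. All 9 tested interferon response genes rose, and the sum over 10 such genes was 45.7 FPKM in control and 436 in Nd1. That sum includes Irf7 (1.23 and 55.3 FPKM), whose test failed. The part of these changes in the channel results was not tested.

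Genes that work with these channels were read from 5 lists, whose shares of called genes stand beside the 34.4% of all tested loci and the 30.3% outside odorant receptors. Of 13 tested partners of sodium channels and of the related sodium leak channel, 6 rose and 2 fell (61.5% called, median log2 ratio 0.12). Cntn1, an adhesion protein that binds sodium channel complexes, rose from 0.984 FPKM by a log2 ratio of 2.61, and Nalcn, the leak channel itself, from 1.13 to 1.82 FPKM. The scaffold gene Ank2 rose from 122 to 161 FPKM, while Fgf12, which modulates sodium channel inactivation, fell from 192 to 141 FPKM. Ank3, the ankyrin that anchors sodium channels at the axon initial segment, was also among the 6 rises, from 103 to 112 FPKM, and was named after its value was seen.

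Of 20 tested calcium channel partners and store-operated channel genes 4 rose and 3 fell (35% called, median 0.052), a share near that of all tested loci. Stac, an adaptor of L-type channels, rose from 4.05 to 11.0 FPKM, Cabp4, a calcium-binding regulator of L-type channels, from 17.5 to 33.5 and Erc2, an active zone protein, from 0.468 to 1.15 FPKM. The lysosomal channel gene Tpcn1 fell from 16.5 to 8.07 FPKM. In the list of other chloride channels and partners 8 of 23 tested genes fell and 5 rose (56.5% called, median -0.16). Cftr fell, as given above, and Bsnd, a chloride channel subunit gene, fell from 4.67 to 2.12 FPKM, while Clic6 rose from 8.64 to 17.9 FPKM and the scramblase Ano6 from 6.62 to 13.1 FPKM.

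Of 10 tested Trp relatives and partners 4 rose and 1 fell (50% called, median 0.21). The polycystin relative Pkd2l2 rose from 3.51 to 17.0 FPKM, the mucolipin channel Mcoln3 from 32.9 to 89.7 FPKM and the calcium release channel Itpr1 from 5.79 to 10.7 FPKM, while Itpr3, another such channel, fell from 2.26 to 1.05 FPKM. Of 6 tested genes among cyclic nucleotide-gated channels and Hcn partners 4 fell and 1 rose (83.3% called, median -0.38). These falls include Cnga2, Cnga4 and Cngb1, already counted among the mature neuron markers above. Pex5l, which encodes the Hcn auxiliary subunit TRIP8b and was named after its value was seen, fell from 120 to 97.3 FPKM, and Kcne2, a small auxiliary subunit, rose from 0.512 to 1.40 FPKM.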

How the data were processed

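RNA of sorted mature olfactory sensory neurons was measured in 4 libraries. Per the file headers, the authors deposited 1 table with a single FPKM value per group and the p-value and q-value of Nd1 against control for 28168 loci, of which 14841 were tested, 12711 not tested and 616 failed. Bowtie, Cuffdiff 1.3.0 and mm9 were used per the submitters' processing notes, which give no annotation. The unit follows from the tool and the table's layout. The depth is unknown, and no column held a value per library.

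Members, subfamilies and lists were chosen with earlier results of these data known. Log2 ratios were computed from the FPKM values with Python 3.11.15 and pandas 2.3.3, equal to the listed log2 fold changes within 1.38e-05 where tested and above 0 in both groups. The q-values equal a Benjamini-Hochberg adjustment over tested loci (within 1% in 100.0% of them). No test was run here. Medians used tested genes with a mean of at least 0.5 FPKM. Named genes were every member called or of at least 1 FPKM, others by count, and up to 4 called genes per partner list of at least 1 FPKM by size of change. The results of a few genes are counted in totals and not reported here by name. Coordinates are mm9 with 1 added to each start and bound the listed locus. Counts and medians were checked on simulated data. With no spread to use, a value was taken as moved when it shifted by 0.1 (log2) or more. Alternatives were q, fold and level minimums, pseudocounts of 1 and 0.1, all rows of a symbol, and 3 scalings.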

Additional observations from a re-analysis of the deposited data

How the results depend on the processing

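Counts of 12 rises and 13 falls stayed within 1.5 times at q under 0.01 (9 and 9), at a mean of at least 1 FPKM (11 and 11) and over every matching row (14 and 14). With a minimum of 1.5-fold there were 9 rises and 5 falls, and with 2-fold 5 rises and 4 falls. No called member changed sign after scaling by the median ratio outside odorant receptors, rescaling to the same sum without them or quantile normalization. The first 2 shift every ratio by 0.0435 and 0.104, less than the smallest called change (0.195, Clcn6), so they could not change a sign. The authors' q-values were kept throughout, so no call was made anew. Of these checks of sign, the last 2 were chosen after seeing the data, as was the count without Trpc4ap, which left 12 and 13. Rescaling to the same sum shifted every log2 ratio, and so the median of all tested loci, by 0.104. The median of tested members, 0.023, became 0.127 after that rescaling and -0.130 with no minimum of mean FPKM, the latter because 3 genes of low level entered, so its sign is not fixed. Of 42 named members, 13 moved by 0.1 or more with log2(FPKM + 1), 16 with quantile normalization and 1 with rows of a symbol summed. No paired analysis was possible because the table holds 1 pooled value per group, and for the same reason no library could be left out. How far the 212-day and 87-day libraries, or the differing control genotypes, contribute cannot be told apart here.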
